A study of Mus musculus with 24 samples.

Results

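The 10 genes described here are the FGF receptors *Fgfr1*, *Fgfr2* and *Fgfr3* and 7 genes that the FGF/ERK pathway switches on: the feedback inhibitors *Spry1*, *Spry2*, *Spry4* and *Dusp6* and the ETS transcription factors *Etv1*, *Etv4* and *Etv5*. They were chosen by name as pathway genes, 10 of the 51912 genes in the deposited table, and their levels were followed across the 6 groups of the study. The lowest value of any of them in any library was 98.1 (*Etv4* in a NestinCre control), so all 10 were kept by the filter on low values, which left 16454 genes for testing. The study sequenced mRNA from dissected mouse archicortex, the medial wall of the telencephalon that holds the cortical hem and the fields from which the hippocampus forms, to ask what changes there when the transcription factor SOX9 is deleted.

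There were 24 libraries from embryos of a mixed C57BL/6J;MF1 background, 4 in each of 6 groups. At E12.5 these were Sox9fl/fl;Sox1Cre mutants (A9 to A12) and Sox9+/+;Sox1Cre controls (A13 to A16). At E13.5 they were Sox9fl/fl;Sox1Cre mutants (A1 to A4), Sox9+/+;Sox1Cre controls (A5 to A8), Sox9fl/fl;NestinCre mutants (A17 to A20) and Sox9+/+;NestinCre controls (A21 to A24). All groups, controls included, carried a Cre. Sox1Cre, an allele targeted to the Sox1 gene, is active throughout the neural plate and so removes *Sox9* from the whole archicortex, whereas the NestinCre transgene acts later and leaves most of the cortical hem undeleted. Values are normalized counts, that is reads per gene divided by a size factor for each library, and the depth recovered from them was 16163560 to 49445219 reads per library (median 23016925). The labels do not say whether the 4 libraries of a group came from separate embryos or litters, so the p-values measure the spread between these libraries. Each library is a piece of tissue, in which fewer cells of a type and less RNA per cell cannot be told apart.

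FGF ligands bind receptor tyrosine kinases on the cell surface, and the receptors pass the signal through RAS and RAF to the kinases MEK and ERK. Active ERK induces the ETS factors *Etv1*, *Etv4* and *Etv5*, and it also induces its own brakes: Sprouty proteins act between receptor and RAF, and DUSP6 removes the phosphates from ERK. Because their mRNA follows pathway activity, these genes are widely used as readouts of FGF signalling. In the early forebrain FGF8, FGF17 and FGF18 come from the front midline of the telencephalon, while *Fgfr3* and the transcription factor *Nr2f1* are known for levels that are higher towards the back of the cortex.

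*Sox9* itself was measured first. Its level was 2260.0 ± 508 (SD, n = 4) normalized counts in E12.5 Sox1Cre mutants against 4522 ± 503 (SD, n = 4) in controls. The E13.5 Sox1Cre mutants had 3363 ± 376 (SD, n = 4) against 5578 ± 306 (SD, n = 4), and the NestinCre mutants had 3134 ± 162 (SD, n = 4) against 5152 ± 465 (SD, n = 4). Mutants and controls did not overlap in any of the 3 comparisons, with log2 changes of -1.02, -0.74 and -0.71 and adjusted p-values of 6.28e-05, 0.0021 and 0.0297 (limma over all genes, Benjamini-Hochberg). *Sox9* thus followed the genotype labels. According to the paper, Cre removes only some exons of *Sox9*, and reads of the remaining exon persist in mutants. These counts over the whole gene therefore do not measure how much *Sox9* was deleted or whether the Cre lines deleted it equally. Genes listed here as archicortex markers were present in all libraries. Means were 7412 normalized counts for *Wnt8b* of the hem list and 15922 for *Lhx2* of the hippocampal field list. How specific these genes are to those regions was not tested.

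Compared per kilobase of exon and averaged over all 24 libraries, *Fgfr3* and *Fgfr1* had the highest levels of the 10 genes. The order differed by group: in E12.5 Sox1Cre mutants *Spry1* led with 814 per kb, against 557 for *Fgfr1* and 551 for *Fgfr3*. In E12.5 Sox1Cre controls *Spry1* (563) lay above *Fgfr1* (544) and below *Fgfr3* (672). Mean levels over the 24 libraries were 704 normalized counts per kb for *Fgfr3* and 519.7 ± 40.2 (SD, n = 24) for *Fgfr1*, with *Spry1* at 508, *Etv5* at 301 and *Dusp6* at 297. *Fgfr2* had 252 per kb, *Spry2* 157, *Etv4* 68.3, *Spry4* 51.8 and *Etv1* 33.7. Neighbours in this order were often not separated: *Fgfr3* exceeded *Fgfr1* in 16 of 24 libraries, *Fgfr1* exceeded *Spry1* in 16, *Etv5* exceeded *Dusp6* in 15 and *Dusp6* exceeded *Fgfr2* in 11. By contrast *Spry2* exceeded *Etv4* in all 24. *Fgfr4*, the remaining tyrosine kinase receptor of the family, had 6.37 per kb.

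The 3 receptors differed in how steady they were. *Fgfr1* was nearly constant, from 4399 normalized counts (A1) to 6025 (A4), both of them E13.5 Sox1Cre mutants, a range of 1.37-fold over all 24 libraries. *Fgfr2* ranged 2.03-fold, from 1666 in A18 to 3388 in A10. *Fgfr3*, whose receptor restrains growth in bone, ranged 3.71-fold, from 1928 in A11 to 7157 in A5. Its values in E13.5 Sox1Cre controls were 7157, 6881, 6144 and 3912 (A5 to A8), and those in the mutants were 5452, 2997, 3179 and 4121 (A1 to A4). The highest mutant, A1, lay above the lowest control, A8, so the groups overlapped.

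**Figure D1:**
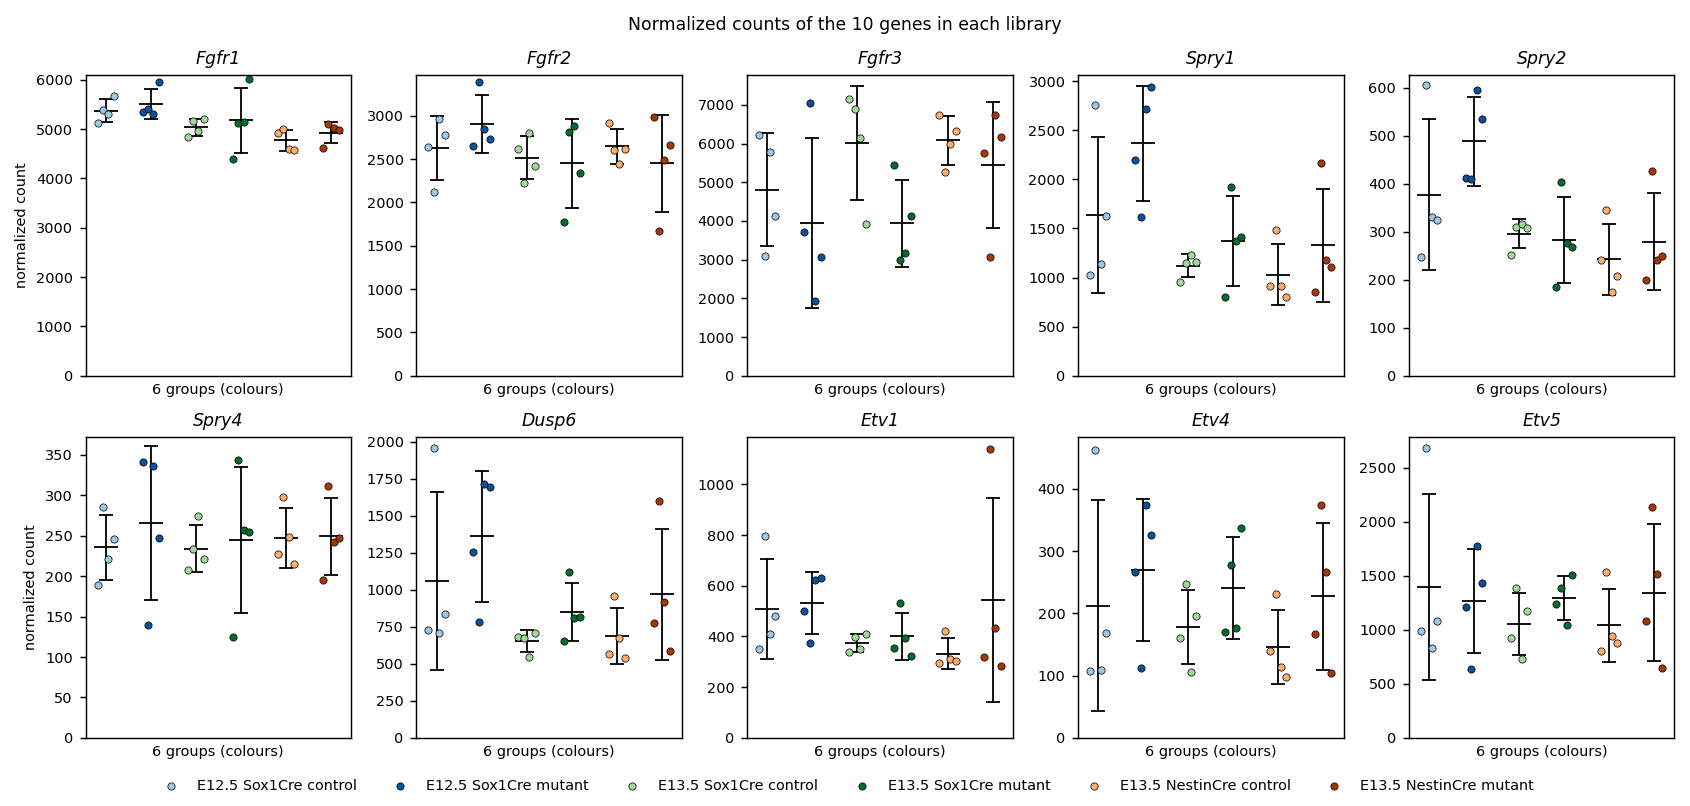
Normalized count (y axes, from 0) of the 10 genes in each library, with 1 panel per gene and the 6 groups side by side in colour; dots are libraries, and bars are the mean and SD of 4. Fgfr1 stayed between 4399 and 6025, whereas Dusp6 ran from 543 to 1958 and overlapped between mutants and controls in every comparison of genotypes.

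None of the 10 genes passed the test between mutants and controls. In E13.5 Sox1Cre mutants 0 of 10 passed the threshold, where 0.924% of all genes tested did (152 of 16454). In NestinCre mutants 0 of 10 passed, against 0.0669% of all genes (11), and in E12.5 Sox1Cre mutants 0 of 10 passed, against 0.723% (119). At an unadjusted p under 0.05 the limma count was also 0 in each of these comparisons. Sexes were not balanced in the Sox1Cre groups: *Xist*, the RNA made by the inactive X chromosome, was high in 4 of 4 controls and 2 of 4 mutants at E12.5 and in 0 of 4 controls and 2 of 4 mutants at E13.5. With *Xist* as a covariate 0 of 10 passed, with 1 (*Spry1* in E12.5 mutants, adjusted p = 0.356, limma) at an unadjusted p under 0.05. In that fit 13.2% of all genes tested were under it in E12.5 mutants. edgeR and DESeq2 on the recovered reads called 0 of 10 as well, with 1 of 10 at an unadjusted p under 0.05 in NestinCre mutants and 0 in the others. Of all genes tested, 6.50% (edgeR) and 6.43% (DESeq2) were under it in NestinCre mutants. At these backgrounds, a count of 0 among 10 genes does not set them apart from the rest. The median log2 change of the 10 was 0.054, 0.24 and 0.13 in the 3 comparisons, where that of all genes tested was -0.0046, -0.0021 and 0.0020. The NestinCre median leaned on mutant A18. Without A18 the change there was 0.16 for *Dusp6* (from 0.43), 0.059 for *Spry1* (from 0.32) and 0.043 for *Etv1* (from 0.48). It was 0.27 for *Etv4* (from 0.56) and 0.020 for *Etv5* (from 0.29).

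Of the receptors, *Fgfr1* was estimated most closely. Its log2 change was 0.031 in E13.5 Sox1Cre mutants (95% interval -0.11 to 0.17), 0.045 in NestinCre mutants (-0.093 to 0.18) and 0.034 in E12.5 Sox1Cre mutants (-0.10 to 0.17). For *Fgfr2* the changes were -0.057, -0.14 and 0.15, with intervals of -0.38 to 0.27, -0.47 to 0.19 and -0.18 to 0.48. *Fgfr3* had the lowest unadjusted p of the receptors. Its mean was 6024 ± 1471 (SD, n = 4) in the E13.5 Sox1Cre controls and 3937 ± 1124 (SD, n = 4) in the mutants, which is a log2 change of -0.62 (standard error 0.319, interval -1.28 to 0.047) with an adjusted p of 0.472 by limma and an exact permutation p of 0.0857. In NestinCre mutants its change was -0.22 (-0.88 to 0.45), and it ran from -0.34 to 0.037 when single libraries were left out. In E12.5 Sox1Cre mutants it was -0.39 (-1.06 to 0.27), from -0.72 without A10 to -0.10 without A11.

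The feedback inhibitors had wide intervals. *Dusp6*, the phosphatase of ERK, had values of 652, 1120.2, 810.2 and 819 in E13.5 Sox1Cre mutants and 678, 675, 544 and 711 in controls. Mutant A2 was far above the rest and mutant A1 lay inside the control range. The log2 change was 0.36 (interval -0.30 to 1.02, adjusted p = 0.725, limma) and became 0.22 without A2. In NestinCre mutants *Dusp6* was at 774, 1601, 917 and 585, against 567, 957, 676 and 543 in controls. A18 alone lay far above the controls, and the change of 0.43 (-0.23 to 1.10) became 0.16 when A18 was left out. In E12.5 Sox1Cre mutants the values were 1252, 781, 1713 and 1695, against 729.6, 1958, 709 and 836 in controls. Here control A14 held the highest value of the whole series, and the change of 0.44 (-0.23 to 1.10) became 0.78 without it (adjusted p = 0.297, limma).

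*Spry1*, which blocks receptor signalling upstream of RAF, was at 2195, 1615, 2713 and 2939 in E12.5 mutants and at 1026, 2762, 1133 and 1627 in controls. All mutants but A10 lay above all controls but A14, and the change of 0.61 (interval -0.037 to 1.25) had the lowest p of the 10 genes there, with an adjusted p of 0.4 (limma). At E13.5 the change was 0.23 (-0.41 to 0.88) with Sox1Cre and 0.32 (-0.32 to 0.97) with NestinCre. *Spry2* had changes of -0.11, 0.19 and 0.44 in E13.5 Sox1Cre, NestinCre and E12.5 Sox1Cre mutants, and *Spry4* had -0.015, 0.0055 and 0.10. The signs of *Spry2* at E13.5 and of *Spry4* in all 3 comparisons turned when single libraries were left out, while *Spry1* kept its sign in each of these fits, though its E13.5 Sox1Cre estimate was 0.051 without A2.

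Of the 3 ETS factors 0 passed in any of these comparisons. *Etv4* was at 167, 374, 266 and 104 in NestinCre mutants and 139, 231, 114 and 98.1 in controls, so that the groups overlapped. Its log2 changes were 0.44, 0.56 and 0.49 in E13.5 Sox1Cre, NestinCre and E12.5 Sox1Cre mutants, with an interval of -0.41 to 1.53 in NestinCre mutants. The E12.5 estimate was 0.96 without A14 (adjusted p = 0.403, limma). The estimates for *Etv5* were 0.33, 0.29 and -0.067 on the log2 scale, and those for *Etv1* were 0.077, 0.48 and 0.11. The E12.5 estimate of *Etv5* turned sign, running from -0.26 to 0.30 when single libraries were left out. Without A18 the estimates in NestinCre mutants were 0.27 for *Etv4*, 0.020 for *Etv5* and 0.043 for *Etv1*, and that of *Spry1* was 0.059. *Etv4* lies 11.01 Mb from *Sox9* on chromosome 11.

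**Figure D2:**
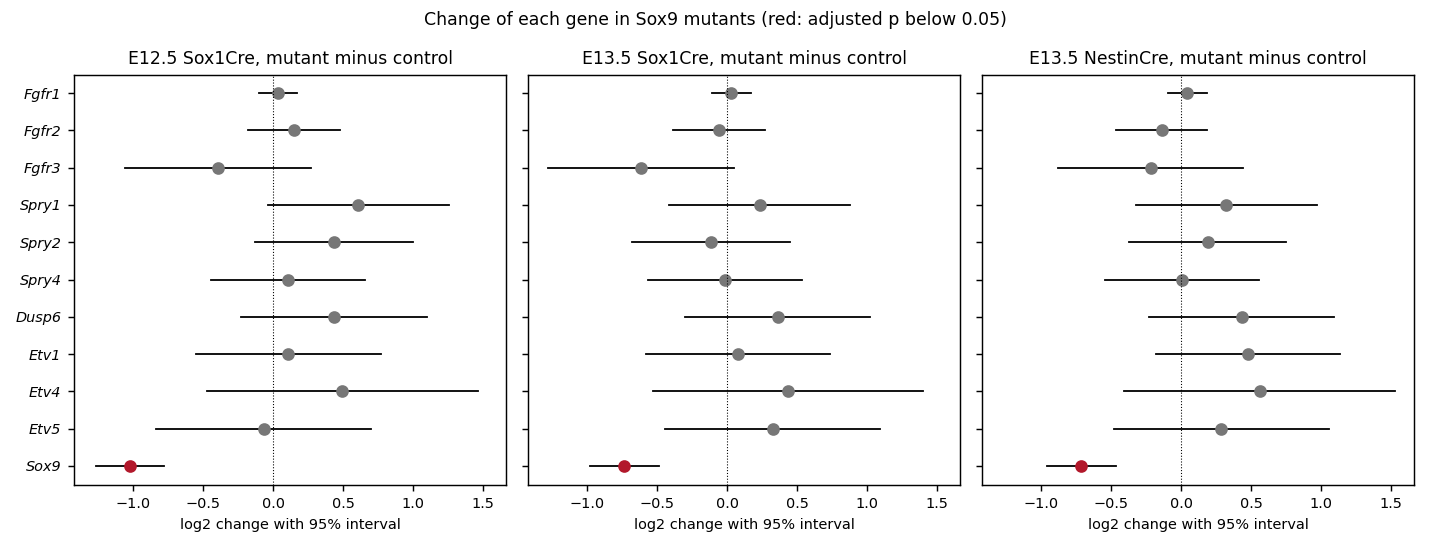
Log2 change, mutant minus control (x axis), of the 10 genes and Sox9 in the 3 genotype comparisons; dots are limma estimates, lines are 95% intervals, and red marks an adjusted p below 0.05. Sox9 is the sole red dot in each panel, and the interval of Fgfr1 (-0.11 to 0.17 in E13.5 Sox1Cre mutants) is far narrower than that of Etv4 (-0.53 to 1.40).

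The difference between the change in Sox1Cre and the change in NestinCre mutants was tested directly as well. It passed for 0 of 10 genes, where 0.0425% of all genes passed (7 of 16454), and its adjusted p-values ran from 0.924 upwards. The change at E13.5 against that at E12.5 passed for 0 of 10 and for 0% of all genes (0 of 16454 by limma, with 1217 at an unadjusted p under 0.05, 0 by edgeR and 20 by DESeq2). The NestinCre and Sox1Cre controls of E13.5 differed in 0 of 10 genes, against 0.243% of all genes (40). In these 3 comparisons limma, edgeR and DESeq2 each had 0 of the 10 genes at an unadjusted p under 0.05. Of all 16454 genes tested, 1360, 1217 and 1652 were under it by limma, in the same order. A count of 0 among 10 genes does not set them apart from the rest at these backgrounds.

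Most of the 10 genes varied widely between libraries of the same group. After the group means were removed, the standard deviation of log2 values was 0.484 for *Dusp6*, 0.563 for *Etv5*, 0.706 for *Etv4* and 0.473 for *Spry1*, where the median of all 16454 genes was 0.171. *Dusp6* was more variable than 97.6% of the genes whose mean lay within 2-fold of its own, *Etv5* than 98.6%, *Spry1* than 98.4% and *Fgfr3* than 98.5%. *Fgfr1* stood at 56.9% by the same measure, near the middle. The extremes recurred in the same libraries: A14, a control at E12.5, had the highest *Dusp6*, *Spry2*, *Etv4* and *Etv5* of all 24, and A11, A12 and A18, all mutants, ranked from 1 to 5 for *Dusp6*, *Spry1*, *Spry2*, *Etv1* and *Etv4*.

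Values for A14 and its 3 fellow controls show the size of this. *Etv5* was 2682 in A14 and 989, 836 and 1082 in A13, A15 and A16. *Spry2* was 606 against 247, 331 and 325, and *Fgfr3* went the other way, at 3106 against 6231, 5788 and 4116. In NestinCre mutants A18 stood apart in the same manner, with *Etv1* at 1138 against 318, 433 and 283, *Spry1* at 2169.8 against 856, 1177 and 1112 and *Fgfr3* at 3067 against 5753, 6741 and 6179. In the E13.5 Sox1Cre mutants it was A2, with *Spry4* at 344 against 125, 257 and 255. Library A10 was the reverse case among E12.5 mutants, with *Fgfr3* at 7045 against 3719, 1928 and 3078 and *Etv5* at 643 against 1215, 1781 and 1434.

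**Figure D3:**
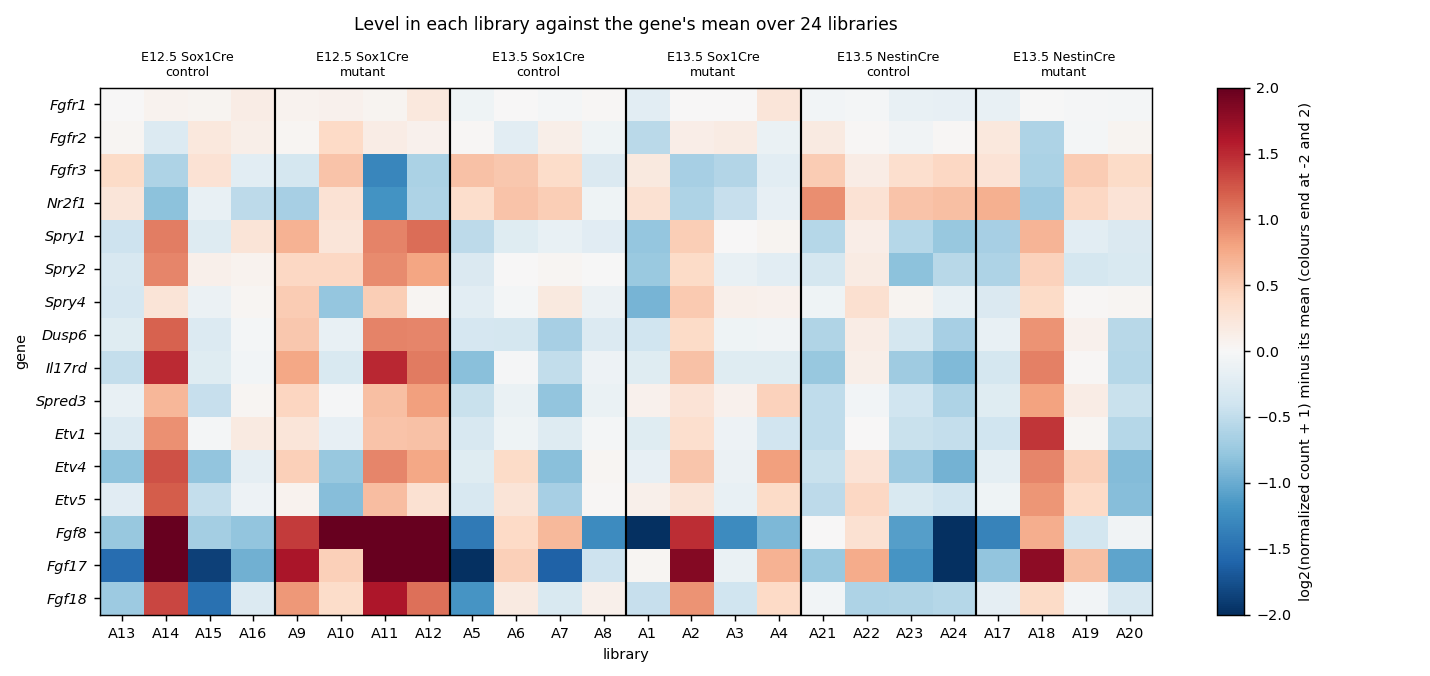
Log2(normalized count + 1) of each gene (rows) in each library (columns, in 6 groups) minus the mean of the gene over 24 libraries, in colour from -2 to 2. Columns A14, A11, A12, A18 and A2 are red for most feedback and ETS genes (Spry4 and Etv5 in A12 and Etv5 in A2 are pale) and for Fgf17 and blue for Fgfr3 and Nr2f1, while Fgfr1 stays pale (1.37-fold range).

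Pairwise, the 7 feedback and ETS genes rose and fell together. Over 24 libraries all 21 pairs among them had a positive Pearson r, from 0.46 to 0.94 (median 0.76), and Spearman's rho from 0.42 to 0.92. Of all 45 pairs of the 10 genes that were computed, these 21 had adjusted permutation p-values for r of at most 0.0306 (100000 permutations, two-sided, Benjamini-Hochberg over 45 pairs), and those for rho were under the threshold in 20 of 21, the exception being *Spry2* with *Etv5* (adjusted p = 0.055). *Spry1* with *Spry2* reached r = 0.94 (rho = 0.92), *Etv4* with *Etv5* r = 0.92 (rho = 0.91), *Dusp6* with *Spry1* r = 0.91 (rho = 0.85) and *Dusp6* with *Etv1* r = 0.89 (rho = 0.84), each with a permutation p of 1e-05, the smallest that this number of permutations can give. With group means removed and labels permuted within groups, the 21 values ran from 0.49 to 0.96 (highest adjusted p = 0.0234). Within the 8 libraries of E12.5 they ran from 0.50 to 0.98 and within the 16 of E13.5 from 0.23 to 0.93. Many other genes were correlated with these: over 11829 genes the 95th percentile of r was 0.65 with *Spry1*, 0.66 with *Spry2*, 0.52 with *Spry4*, 0.58 with *Dusp6*, 0.52 with *Etv1*, 0.36 with *Etv4* and 0.34 with *Etv5*. Some of the 21 pairs lay below it, such as *Spry2* with *Etv5* (0.51), with *Spry4* (0.52) and with *Etv4* (0.64).

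*Fgfr3* moved against all of them. Its r was between -0.80 and -0.60 with the 7 genes, the lowest with *Dusp6* (r = -0.80, rho = -0.71, permutation p = 1e-05) and with *Spry1* (r = -0.80, rho = -0.66, permutation p = 1e-05), and the highest adjusted p of the 7 was 0.00342. Within groups the values were -0.80 to -0.68, within E12.5 -0.90 to -0.77 and within E13.5 -0.75 to -0.45. *Fgfr1* had positive r with all 7 (0.28 to 0.71), of which 4 passed the threshold and 2 within groups. *Fgfr2* ranged from -0.59 with *Etv5* to 0.052 with *Spry2*, and 2 of its 7 pairs passed. With group means removed its 7 values were -0.65 to -0.044, and 4 passed.

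The relations were recomputed without the most extreme libraries. Without the 2 libraries farthest from the median of the first gene of each pair, the 21 values were 0.29 to 0.92 (median 0.66), the lowest being *Spry2* with *Etv5*, and those of *Fgfr3* were -0.76 to -0.49. Without A14 and A18 they were 0.33 to 0.93 and -0.79 to -0.56. For *Fgfr2* the outcome depended on which libraries were left out: without its 2 farthest libraries, A18 and A1, its r was -0.60 with *Etv5* and -0.46 with *Etv4*, and without A14 and A18 it was -0.40 and -0.21. Without A14 and A18 the sign turned for others, so that 5 of its 7 values were above 0, with *Dusp6* at 0.17 (from -0.23) and *Spry1* at 0.33 (from -0.031). The points of a pair share a library, and with it its dissection, its size factor and its RNA. The genes were chosen as members of a single pathway, and the p-values describe these libraries.

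**Figure D4:**
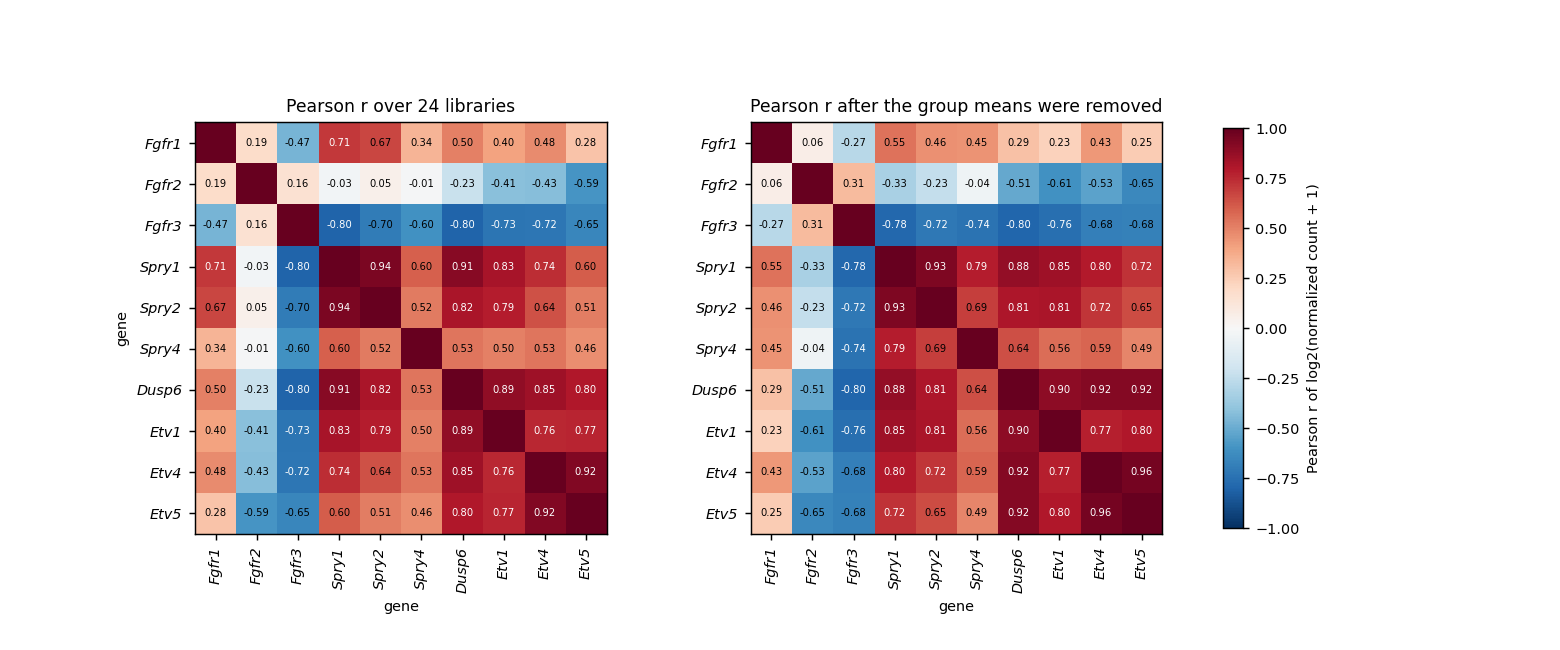
Pearson r of log2(normalized count + 1) for each pair of the 10 genes (both axes), over 24 libraries on the left and after removal of group means on the right, in colour from -1 to 1. The block from Spry1 to Etv5 is red in both panels (0.46 to 0.94 on the left), the Fgfr3 row is blue against it (-0.80 to -0.60), and Fgfr1 and Fgfr2 are paler.

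For *Spry1*, *Spry2* and *Dusp6*, which share this pattern, the 250 bases before the annotated start are shown to give the DNA next to which a shared regulator could be looked for (RefSeq, build GRCm38.p6). Capitals mark the 4-letter ETS core GGAA and its reverse complement TTCC, so that both strands are read. Positions are chr3:37639697-37639946 (plus strand) for *Spry1*, chr14:105896820-105897069 (minus strand) for *Spry2* and chr10:99262981-99263230 (plus strand) for *Dusp6*.
Spry1: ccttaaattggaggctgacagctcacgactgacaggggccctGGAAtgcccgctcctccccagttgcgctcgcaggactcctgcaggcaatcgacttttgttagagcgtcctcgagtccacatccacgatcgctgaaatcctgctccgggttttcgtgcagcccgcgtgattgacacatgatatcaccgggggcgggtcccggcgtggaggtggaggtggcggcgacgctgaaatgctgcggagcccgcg
Spry2: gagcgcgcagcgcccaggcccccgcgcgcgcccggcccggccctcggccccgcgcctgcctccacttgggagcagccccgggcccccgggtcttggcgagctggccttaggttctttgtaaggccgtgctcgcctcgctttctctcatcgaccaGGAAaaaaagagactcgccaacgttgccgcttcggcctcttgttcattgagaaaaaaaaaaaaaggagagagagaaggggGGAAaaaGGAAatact
Dusp6: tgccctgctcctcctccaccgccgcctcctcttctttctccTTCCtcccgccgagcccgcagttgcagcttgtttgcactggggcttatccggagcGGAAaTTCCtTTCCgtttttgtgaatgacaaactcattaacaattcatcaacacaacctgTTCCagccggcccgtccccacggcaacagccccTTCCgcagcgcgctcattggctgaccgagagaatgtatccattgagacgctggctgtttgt
*Dusp6* had 6 cores, *Spry2* had 3 and *Spry1* had 1. Of the windows not shown, those of *Etv1* had 2 and 1 and those of *Etv5* had 0 and 4. Those of *Fgfr3*, which moved the other way, had 1 and 5, and that of *Fgfr2* had 2. Such a short motif is common: 93.4% of all 32851 promoter windows of this length held it, with a median of 3 matches. The longer ETS sites CCGGAA and CCGGAAGT, in 12% and 2.88% of all windows, were not among the letters of any of the 10 windows held by 7 of the genes. The match is a description of the sequence and says nothing of binding.

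Genes of the FGF family were followed beside the feedback genes. Of 22 such genes 11 passed the filter on low values, among them *Fgf11*, *Fgf12*, *Fgf13* and *Fgf14*, whose products stay inside the cell and are not ligands of these receptors. Per kb, *Fgf17* and *Fgf13* were the most abundant (354 and 309.5). *Fgf17* ran from 45.8 normalized counts in A24 to 2382 in A11, a 52-fold range, and A24 and A11 were also the lowest and the second highest library for *Dusp6*. Its values in E12.5 controls were 118, 2219.6, 92.7 and 174, with A14 again apart. In NestinCre mutants they were 196, 1179.7, 517 and 163, with A18 highest, and in E13.5 Sox1Cre mutants 350.5, 1217, 311 and 550.1, with A2 highest. *Fgf8*, which patterns the front of the forebrain, was 158 in A14 and 13.1, 13.8 and 12.8 in its fellow controls. *Fgf15* was 439 in A18 and 35.6, 88.9 and 82.9 in the other NestinCre mutants. Of the 11 genes tested 0 passed (limma) in any genotype comparison or between control lines. At an unadjusted p under 0.05 there were 5 in E12.5 Sox1Cre mutants (*Fgf8*, *Fgf17* and *Fgf18*, and *Fgf12* and *Fgf13* of the intracellular group) and 0 in the others, where 2217 of all 16454 genes tested were under it in E12.5 Sox1Cre mutants, 1932 (11.7%) in E13.5 Sox1Cre mutants and 1064 (6.47%) in NestinCre mutants. The median log2 change of the 11 was 0.083, 0.40 and 0.64 in E13.5 Sox1Cre, NestinCre and E12.5 Sox1Cre mutants.

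Other feedback inhibitors were followed from a list of 14 genes, of which 13 were tested. *Il17rd*, a membrane antagonist of FGF receptors also known as Sef, ran from 940.1 in A24 to 4931 in A11. It was 4854 in A14, against 1242, 1469 and 1672 in the other E12.5 controls, and 3469 in A18, against 1352, 1753 and 1165 in the other NestinCre mutants. The 6 libraries with the highest *Dusp6* (A14, A11, A12, A18, A9 and A2) were also the 6 with the highest *Il17rd*. Some other pathway genes went the other way over 24 libraries (a description with no p). Their r with *Dusp6* was -0.70 for *Jun*, -0.69 for *Fgf11*, -0.66 for *Fosl2* and -0.26 for *Dusp4*. With group means removed the values were -0.51 for *Jun*, -0.54 for *Fgf11* and -0.55 for *Fosl2*, whereas *Dusp4* turned to 0.25. *Dusp4*, a nuclear phosphatase of ERK, and *Spred1*, a Sprouty-related inhibitor, were the most abundant of the list per kb (904 and 386). In the genotype comparisons 0 of 13 passed the limma threshold. The counts at an unadjusted p under 0.05 were 3, 2 and 2 in E13.5 Sox1Cre, NestinCre and E12.5 Sox1Cre mutants. Of all 16454 genes tested, 1932, 1064 and 2217 were under that p in the same order. Between control lines 0 of 13 passed, with 1 at an unadjusted p under 0.05, where 1652 of all 16454 genes were under it.

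**Figure D5:**
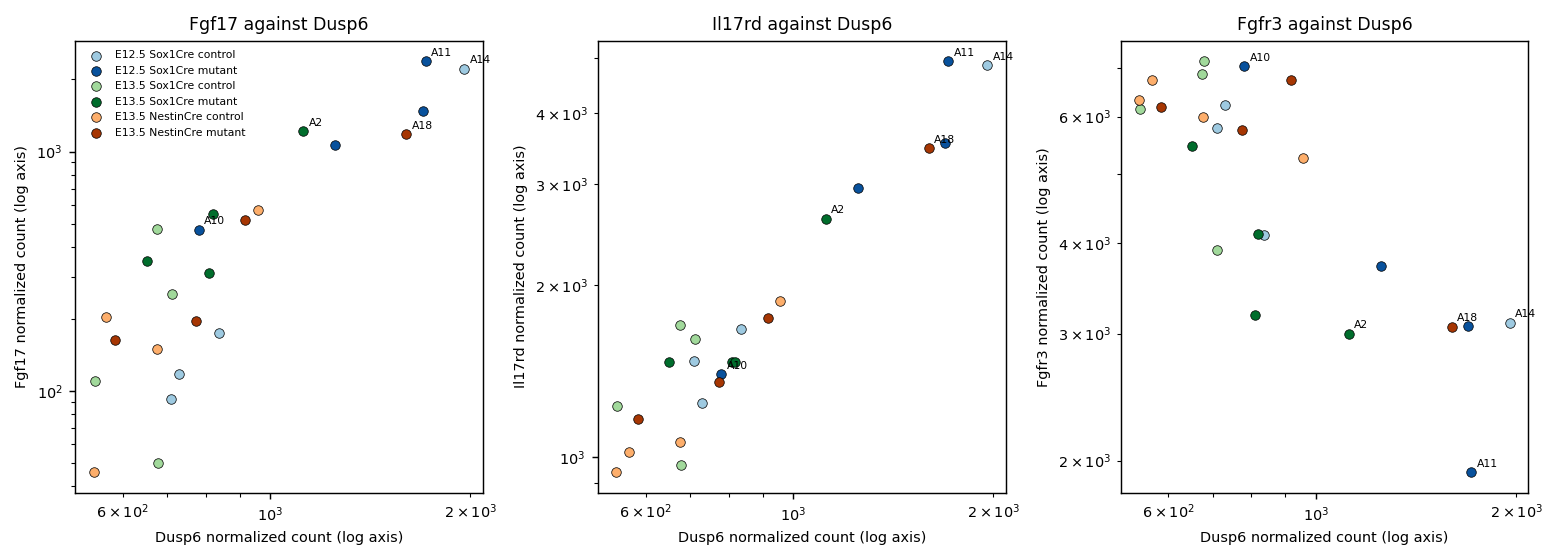
Normalized counts of Fgf17, Il17rd and Fgfr3 (y axes, log scale) against Dusp6 (x axes, log scale) in 24 libraries, coloured by group. Fgf17 and Il17rd are high where Dusp6 is high (A11 and A14 at 2382 and 2219.6 for Fgf17), and Fgfr3 is low there (1928 and 3106). Fgf17 and Il17rd were chosen after their values were seen.

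The remaining parts of the pathway were described from lists. The 20 genes of the RAS to ERK cascade, led per kb by *Nras* (1215), summed to between 49380.0 and 54134 normalized counts in all 24 libraries, and their sum was 51824 in A14 and 51754 in A18. The 21 receptor partners summed to between 52888.8 and 97435 normalized counts. Of 20 partners tested, among which *Sulf2*, a heparan sulfatase, and *Gpc1*, a glypican, were highest per kb (1862 and 1689), 0 passed in any genotype comparison or between control lines. The counts were also 0 for the 20 cascade genes and for 12 genes listed here as early genes of ERK. *Id1* and *Jun* led that list (706 and 639.7 per kb), and whether its genes followed ERK in this tissue was not tested. At an unadjusted p under 0.05, limma gave 3, 0 and 3 partners in E13.5 Sox1Cre, NestinCre and E12.5 Sox1Cre mutants. In the same order there were 1, 1 and 3 cascade genes and 1, 1 and 2 early genes. Of all 16454 genes tested, 1932, 1064 and 2217 were under that p. The median log2 changes in E13.5 Sox1Cre, NestinCre and E12.5 Sox1Cre mutants were -0.042, 0.025 and 0.0027 for partners, -0.024, 0.037 and -0.016 for the cascade, 0.068, 0.11 and 0.044 for the other inhibitors and -0.0032, -0.15 and -0.097 for early genes.

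Age was compared between E13.5 and E12.5 in the Sox1Cre libraries alone, in mutants and in controls. In mutants 1 of the 10 genes passed, where 25.9% of all genes did (4263 of 16454), so the share among the 10 was below the background. That gene was *Spry2*, which fell from 489 ± 92.3 (SD, n = 4) at E12.5 to 283 ± 90.2 (SD, n = 4) at E13.5. Its values were 412, 410.5, 596 and 535 at E12.5 and 184, 403, 277 and 268 at E13.5. They did not overlap, and neither did those of 23.1% of all genes tested (3808 of 16454). The log2 change was -0.82 (standard error 0.27, adjusted p = 0.0298, limma; exact permutation p = 0.0286, the smallest possible with 4 against 4). The call was lost without A1, A3, A4, A11 or A12, with changes of -0.83 to -0.63 and adjusted p-values of 0.0506 to 0.102 (limma). *Spry1* had an estimate of -0.81 (adjusted p = 0.0583) and *Dusp6* of -0.64 (adjusted p = 0.147, limma), neither of which passed.

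In controls 0 of 10 genes passed for age (limma), where 11.5% of all genes did (1892). At an unadjusted p under 0.05 there were 0 of 10 by limma and 1 by edgeR and by DESeq2, which called 0 as well. Of all genes tested, 26.7% (limma), 26.8% (edgeR) and 27.2% (DESeq2) were under it, so the share among the 10 was below the background. The median log2 change of the 10 genes with age was -0.18 in controls and -0.19 in mutants, beside -0.0016 and -0.0079 for all genes tested. *Spry1*, *Spry2* and *Dusp6* had log2 changes of -0.44, -0.27 and -0.56 in controls, with the upper ends of their intervals at 0.21, 0.29 and 0.10. Over the alternatives, leaving out single libraries included, these ran from -0.62 to -0.15 for *Spry1* and from -0.45 to -0.014 for *Spry2*. For *Dusp6* they ran from -0.71 to -0.22. *Xist* was at 3526 or more in 11 libraries and at 6.41 or less in 13. All 4 E12.5 Sox1Cre controls were high in *Xist* and all 4 E13.5 Sox1Cre controls low, so age and sex cannot be told apart in controls, and with *Xist* as a covariate the age comparison in controls called 0 genes (limma, with 2460.0 genes and 0 of the 10 at an unadjusted p under 0.05). The mutants had 2 high libraries at each age. Markers of cell types moved with age too: of 9 cortical hem markers 6 fell in controls and 7 in mutants (median log2 changes -0.83 and -1.21), of 5 erythroid markers 4 and 3 fell, and of 7 neuronal markers 5 rose in each. Their part in the values of *Spry2* was not tested.

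Of the pathway lists, counts with age are read against 25.9% of all genes in mutants and 11.5% in controls. Among the FGF family genes 6 of 11 passed in mutants, 4 upwards and 2 downwards. *Fgf8* fell by 3.14 on the log2 scale, from 135 ± 61.9 (SD, n = 4) to 22.5 ± 28.9 (SD, n = 4), although the groups overlapped at A2. *Fgf15*, the embryonic ligand of the neuroepithelium, fell by 2.99, with 164, 584, 153 and 339 at E12.5 and 35.6, 142, 11.9 and 17.6 at E13.5. *Fgf2* rose by 1.05, and the intracellular *Fgf12* by 1.06. *Fgf12* also rose in controls (1.52), the sole gene of the 11 to pass there. *Dusp4* rose with age in mutants (1.28, adjusted p = 0.00085, limma) and in controls (adjusted p = 0.0112), and *Dusp5*, another ERK phosphatase, fell by 1.40 and by 1.27. They were the only 2 of 13 other inhibitors to pass in each of these comparisons. The partners had 4 rises and 7 falls among 20 in mutants, with *Sulf2* lower by 1.28 and *Kl*, the ageing-related co-receptor Klotho, higher by 1.34, and 4 falls in controls, with *Sulf2* lower by 0.96. Of the cascade 3 rose and 4 fell among 20 in mutants, by at most 0.49 on the log2 scale (*Shc1*). *Jun*, a component of the AP-1 factor, rose in mutants and controls (0.80 and 0.67), and *Id1* fell by 1.45 in mutants.

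Other cell types were followed by their markers. In A18 the 8 markers of the ventral telencephalon summed to 686 normalized counts, where the other 23 libraries had 19.2 to 115. *Dlx1* (230.3), *Dlx2* (220.2), *Gad2* (101) and *Dlx5* (64.9) made up most of it, and *Nkx2-1*, which marks the medial ganglionic eminence, was at 0 there. Over all libraries *Lhx6* was the most abundant of the 8 (mean 24.8). In A14 and A11, which had the highest *Dusp6*, the sum was 65.2 and 103, within that range. The sum of 9 cortical hem markers, led by *Wnt8b*, was 37788 in A14, 43893 in A11, 64800.3 in A12 and 25704 in A18, within a range of 15368 to 64800.3 over 24 libraries. As a description over 24 libraries with no p, the r of marker sums with *Dusp6* ran from -0.64 for the hippocampal field to 0.57 for the cortical hem, with -0.55 for intermediate progenitors. With group means removed these were -0.38, 0.34 and -0.28, and the highest were radial glia (0.55) and meninges (0.41). The r with *Fgfr3* was 0.50 for the hippocampal field and -0.48 for the hem, and with group means removed the lowest were endothelium and pericytes (-0.58), microglia (-0.52) and meninges (-0.47). A1, the lowest library for *Spry1* and *Spry4*, had the lowest sums of choroid plexus (7927, led by *Ttr*), meninges (17518, led by *Col3a1*) and endothelium and pericytes (5014, led by *Kdr*) of all 24. Of the 6 libraries with the highest *Dusp6*, A14 (18297649 reads on genes), A12 (18413440) and A18 (18514192) were among the 5 shallowest of the 24. A2 (21013925) lay below the median depth, and A11 (27085995) and A9 (37336148) lay above it. Over all 24 libraries the Pearson r of log2 reads with the 10 genes was between -0.18 and 0.19 (-0.12 with *Dusp6*), given as a description with no p. The part of tissue composition in the spread of the 10 genes was not tested. When A1, A14 and A18 were left out together, 0 of 10 genes passed in each genotype comparison (limma), with 2, 0 and 4 at an unadjusted p under 0.05 in E13.5 Sox1Cre, NestinCre and E12.5 Sox1Cre mutants, where 19.6%, 6.56% and 14.5% of all genes tested were under it.

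The genes most like each of the 10 over the 24 libraries were taken by Pearson r among 11820 genes with a mean of at least 100, as a description with no p. The 10 genes themselves were left out of this ranking, although some were closer to each other than to any gene named here (*Spry2* to *Spry1* at 0.94, and *Etv4* and *Etv5* to each other at 0.92). Among the genes compared, *Fgfr3* was most like *Nr2f1* (r = 0.92), the orphan receptor COUP-TFI, which ran from 1372 in A11 to 5970.4 in A21. *Il17rd* was the nearest to *Dusp6* (r = 0.96) and to *Etv1* (0.89) and second to *Spry1* (0.91). *Glis3*, a zinc finger factor, was the nearest to *Spry1* (0.97) and *Spry2* (0.93), followed for *Spry2* by *Six3* (0.89), a factor of the rostral forebrain. *Etv4* was most like *Spred3* (0.88) and *Fgf17* (0.87), *Etv5* like *Scrn1* (0.89) and *Spry4* like *Apod* (0.88). *Fgfr1* and *Fgfr2* had their nearest genes outside the pathway, in *Kcnk1* (0.84) and *Fam3a* (0.84). As a background, the 95th percentile of r over 11829 genes was 0.52 with *Fgfr3*.

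Some counts may hold reads of a neighbour. Exons of *Fgfr2* overlap those of *Ctbp2* on the same strand over 314 bases in the GENCODE M21 annotation, and *Ctbp2* had a mean of 3256 normalized counts against 2598 for *Fgfr2*. *Fgfr3*, *Spry1* and *Fgfr1* overlap antisense genes over 998, 710 and 164 bases, with means of 62.0, 8.26 and 0.265 normalized counts for these genes, against 5038, 1476 and 5132 for *Fgfr3*, *Spry1* and *Fgfr1*.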

How the data were processed

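The authors trimmed reads with Trimmomatic 0.36, aligned them to GRCm38 with STAR 2.5.2a, estimated counts per gene with RSEM 1.2.31 and divided them by DESeq2 size factors. What the authors deposited is therefore a signal, the normalized count per gene, on a linear scale. Whole reads were recovered from the steps between values (100% whole within 0.01 reads in each library), but the check is weaker for A3, whose step lies near 1. The strand setting is not given in the sources used here.

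A gene entered the tests when 4 or more of the 24 libraries reached 10 normalized counts (16454 genes). The test was limma 3.58.1 (R 4.3.3) with a trend on log2(value + 1) and a mean for each of the 6 groups (18 residual degrees of freedom), with two-sided p-values, Benjamini-Hochberg adjustment over all genes and a threshold of 0.05. Changes on this scale are understated for low genes. edgeR 4.0.16 and DESeq2 1.42.0 on the recovered reads, pseudocounts of 0.5 and 5, other filters, quantile normalization, *Xist* as covariate, fewer libraries and leaving out each library were alternatives. Leaving out A1, A14 and A18 together was added after seeing the data. The fits were tested on simulated data.

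Single genes were compared with exact permutation tests over 70 splits (smallest two-sided p = 0.0286), and correlations with 100000 permutations in Python 3.11.15 (scipy 1.17.1, numpy 2.4.6, pandas 2.3.3, plots with matplotlib 3.10.9). Levels per kb used GENCODE M21 exon lengths. The members, pathway lists and marker lists were chosen with earlier results of these data known. Named genes are the 10 members, *Sox9*, from each pathway list the 2 with the highest level per kb and those past the threshold with the largest changes (at most 4 per age comparison), the nearest genes by r and the leading marker of each list. Not every gene that these rules allow is reported here. *Il17rd*, *Fgf8*, *Fgf15* and *Fgf17* by library, *Fgfr4*, *Xist* and the markers of A18 were added after their values were seen. Depth was 16163560 to 49445219 reads per library, and the intervals reflect the spread between libraries.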

Additional observations from a re-analysis of the deposited data

Results flagged for a closer look

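In 22 of 216 groups of 4 libraries that were looked at, the highest or lowest library lay apart from the other 3 by Dixon's criterion at the 95% level. Chance alone gives about 1 in 20 where groups are independent and picked without sight of their values. These groups share libraries, correlated genes and sums that hold genes also looked at singly. Some of the genes were added after their values were seen. The count therefore cannot be read as an excess over chance.

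A14 among the E12.5 Sox1Cre controls stood apart most often. It was high for *Dusp6* (1958 normalized counts), *Etv4* (463), *Etv5* (2682), *Fgf8* (158), *Fgf17* (2219.6) and *Il17rd* (4854), and for the sums of the FGF family genes (4356) and of the other feedback inhibitors (17803). A2 was high among the E13.5 Sox1Cre mutants for *Fgf8* (65.6) and *Il17rd* (2611). Among the NestinCre mutants A18 was high for *Fgf15* (439) and for the sum of ventral telencephalon markers (686). A22 was high among the NestinCre controls for *Spry1* (1484), *Etv1* (422) and *Il17rd* (1875), and A21 of the same group for *Fgf18* (35.4) and the sum of ERK early genes (8678).

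A12 was high among the E12.5 mutants for *Fgfr1* (5949.8) and for the sum of cortical hem markers (64800.3). Among the E13.5 Sox1Cre controls *Spry2* was low in A5 (251), the sum of cascade genes was low in A7 (51680.4) and the sum of hem markers was low in A6 (17925). The sources of these differences were not tested.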

How the results depend on the processing

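In the comparisons of mutants with controls, of control lines and of changes, and for age in controls, the number of the 10 genes past the threshold stayed at 0 under all alternatives that were run, leaving out single libraries included. For age in mutants it was 1 in the fit reported and under every alternative other than leaving out a library, and 0 to 2 when libraries were left out in turn: 0 without A1, A3, A11 or A12, and 2, with *Spry1* added to *Spry2*, without A2 or A10. Without A4 the only call was *Fgfr1* (log2 change -0.17, adjusted p = 0.0402, limma).

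Small changes of single genes turned sign without passing the threshold. With A1, A14 and A18 left out together, the changes in E13.5 Sox1Cre mutants were 0.091 for *Fgfr2*, 0.073 for *Spry2* and 0.28 for *Spry4*, those in NestinCre mutants were 0.035 for *Fgfr2*, 0.037 for *Fgfr3*, -0.035 for *Spry2* and -0.11 for *Spry4*, and that of *Etv5* in E12.5 mutants was 0.30. *Spry4* in E13.5 Sox1Cre mutants was 0.061 by edgeR and 0.065 by DESeq2. With *Xist* as covariate *Etv1* was -0.041 there and *Spry4* was -0.048 in NestinCre mutants. With libraries left out in turn, changes were -0.045 to 0.11 for *Fgfr1*, -0.14 to 0.091 for *Fgfr2*, -0.30 to 0.073 for *Spry2*, -0.21 to 0.28 for *Spry4* and -0.068 to 0.17 for *Etv1* in E13.5 Sox1Cre mutants. They were -0.25 to 0.035 for *Fgfr2*, -0.34 to 0.037 for *Fgfr3*, -0.035 to 0.37 for *Spry2* and -0.11 to 0.11 for *Spry4* in E13.5 NestinCre mutants. They were -0.0035 to 0.061 for *Fgfr1*, -0.043 to 0.39 for *Spry4*, -0.046 to 0.35 for *Etv1* and -0.26 to 0.30 for *Etv5* in E12.5 Sox1Cre mutants.

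Counts over all genes depended on the tool, the covariate and the libraries kept. E13.5 Sox1Cre mutants had 44 (libraries of the comparison alone) to 464 (without A1, A14 and A18; 358 by DESeq2) genes past the threshold beside 152, NestinCre mutants 2 (*Xist* covariate) to 37 (DESeq2) beside 11, E12.5 mutants 76 to 298 beside 119, control lines 22 to 152 beside 40, and age in mutants 2133 to 4702 beside 4263. Age in controls had 0 (*Xist* covariate) to 2370 beside 1892, and the difference between Cre lines 5 to 98 beside 7. Without single libraries the counts were 90 to 510.0, 2 to 7, 50 to 139, 11 to 31, 2948 to 4725, 794 to 2629 and 5 to 144 in the same order. The cause of these differences was not tested.

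No paired analysis was possible because each library has its own number from A1 to A24 and no group shares replicate numbers with another. With 4 libraries a group, the intervals of the feedback and ETS genes were wider than 1 log2 unit, so small changes were not detectable.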
